A study of Homo sapiens with 51 samples.

Results

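The interferon-induced transmembrane (IFITM) genes IFITM1, IFITM2, IFITM3 and IFITM10 were followed across 5 human pancreatic ductal adenocarcinoma cell lines, with and without forced expression of the transcription factor OVOL2. They are 4 of the 25421 gene symbols in the count table. The family was chosen by a measured value: IFITM2 fell with OVOL2 in the line PANC1, where most other interferon-induced genes did not. Every comparison that holds transduced PANC1 libraries is therefore given as a description without a test. Tests were made on KP4 and PK45H, and on untreated cells. The summed count of IFITM1, IFITM2 and IFITM3 is given beside the single genes, because their transcripts share sequence.

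IFITM proteins are small membrane proteins that hinder the entry of enveloped viruses by acting on membrane fusion. IFITM1 lies mostly at the cell surface, whereas IFITM2 and IFITM3 lie mostly in endosomes and lysosomes. All of these are classical targets of interferon, whose receptors signal to a promoter motif called the interferon-stimulated response element (ISRE). IFITM10 belongs to the same family by sequence, and its function is little known. OVOL2 is a zinc-finger repressor that keeps cells in an epithelial state.

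Expression was measured by PLATE-seq, which barcodes the 3′ ends of transcripts, from 100 ng of total RNA collected at 6 days. There were 51 libraries in 17 groups of 3. KP4, PANC1 and PK45H each had 5 groups. One was untreated, and 4 were transduced with lentivirus at a multiplicity of infection of 2 with 8 µg/ml polybrene, carrying OVOL2 or, as the negative control, the fluorescent protein mCherry, each alone or with M2rtTA. M2rtTA is a transactivator that strengthens tetracycline-inducible expression. All 4 transduced groups received 2.5 µg/ml puromycin and 0.6 µg/ml doxycycline on the day after transduction, whereas the labels name no such treatment for untreated cells. HPAFII and PATU8988S were sequenced untreated only. The labels describe the transduced libraries as triplicates without stating independent days, so p-values measure the spread between these libraries.

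Library totals ran from 1165399 to 7490556 counts, and the lowest belonged to untreated HPAFII replicate 2. Ductal keratins summed to between 568 and 13443 CPM (counts scaled to a common library size, with TMM factors) in every library, while the summed leukocyte, endothelial and fibroblast markers reached at most 9.92, 11.7 and 64.9 CPM. The OVOL2 gene itself stayed low in this 3′ assay. With M2rtTA it averaged 4.92 ± 4.69 (SD, n = 3) CPM in KP4, 4.45 ± 0.244 in PK45H and 2.22 ± 0.792 in PANC1 under OVOL2. Without M2rtTA it averaged 1.17, 1.49 and 0.899 CPM, against 1.12, 1.24 and 1.13 CPM under mCherry, so the counts do not show the transgene in that arm. The labels do not give the 3′ end of the transgene. EPCAM, an epithelial adhesion gene, rose in both arms, from 34.9 to 159 CPM in KP4 and from 47.2 to 173 CPM in PK45H without M2rtTA.

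IFITM1 (positions 314040 to 315272), IFITM2 (307816 to 309395) and IFITM3 (319676 to 320860) lie within 13045 bases of chromosome 11 in GRCh38.p14. IFITM10 (1732406 to 1750595) lies 1411546 bases further along the same chromosome. The first 90 coding bases of the clustered genes are shown because they hold the stretch where the paralogs part. Capitals mark bases that differ from IFITM3 after alignment (GENCODE v29 transcripts).
IFITM3: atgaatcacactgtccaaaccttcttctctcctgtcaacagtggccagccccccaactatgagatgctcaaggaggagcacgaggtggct
IFITM2: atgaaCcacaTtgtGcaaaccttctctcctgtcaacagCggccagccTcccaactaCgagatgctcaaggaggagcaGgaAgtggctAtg
IFITM1: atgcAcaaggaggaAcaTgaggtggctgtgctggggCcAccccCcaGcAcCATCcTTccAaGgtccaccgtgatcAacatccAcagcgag
Capitals stand at 9 of the IFITM2 bases and at 18 of the IFITM1 bases. The coding sequence of IFITM1 begins further in, so its line is set partly against IFITM3 bases beyond those printed. A gap in IFITM2 against IFITM3 carries no mark. Over the aligned bases of the coding sequences, gaps left out, IFITM2 and IFITM3 were 94% identical, IFITM1 and IFITM3 87.6%, and IFITM1 and IFITM2 85.5%. IFITM10 was 68.9% to 70.5% identical to the clustered genes over the 329 to 395 bases that aligned, out of its 687 coding bases.

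A stretch of 99 coding bases is identical in IFITM1, IFITM2 and IFITM3, and it is shown because a read inside it cannot be assigned to 1 of them.
Shared by IFITM1, IFITM2 and IFITM3: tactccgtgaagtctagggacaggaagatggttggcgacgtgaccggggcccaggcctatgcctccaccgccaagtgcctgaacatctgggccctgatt
What matters more for a 3′ assay is the transcript end. Of the 270 words of 31 bases in the last 300 bases of the IFITM2 reference transcript, 20 (7.41%) also occur in IFITM3 transcripts and 0 in IFITM1 transcripts. Of those in IFITM3, 28.1% also occur in IFITM2 transcripts and 20.7% in IFITM1 transcripts. For IFITM1 all 270 are shared with IFITM2, because an annotated IFITM2 transcript carries the IFITM1 last exon (314922 to 315272). IFITM10 shared 0 such words with the other members over all its transcripts, but 1036 of its 4862 words (21.3%) also occur in other genes. Over all transcripts, 38.8% of IFITM2 words were shared with members and 45.2% with any gene. For IFITM3 these were 27.3% and 36.4%. How the authors' counting divided shared reads is not given in the sources used here, so the split between IFITM1 and IFITM2 is uncertain, and that between IFITM2 and IFITM3 less so by this measure. An antisense gene, IFITM3-AS1, overlaps IFITM3, and the strand setting of the counting is not given.

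The promoters of IFITM1 and IFITM3 were the 2 of 4 with an entry in the RefSeq promoter table (GRCh38.p14), and they are shown for the interferon motif. Each window has 100 bases before the start and 30 from it, and capitals mark the ISRE core GAAANNGAAA, which was searched on both strands.
IFITM1 promoter, chr11:313940-314069, plus strand: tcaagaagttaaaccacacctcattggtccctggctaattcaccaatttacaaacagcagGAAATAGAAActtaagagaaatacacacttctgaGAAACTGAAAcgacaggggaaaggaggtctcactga
IFITM3 promoter, chr11:320831-320960, minus strand: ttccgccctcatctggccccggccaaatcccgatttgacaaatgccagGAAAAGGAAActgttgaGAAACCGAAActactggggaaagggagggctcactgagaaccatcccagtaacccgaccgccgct
Both windows held 2 ISRE cores. In the full 300-base entries the core occurred in 3.57% of 35116 promoters, and in 33 of 64 promoters (51.6%) of the interferon-induced list used below. The OVO core CCGTTA occurred in 3.07% of promoters, and these letters are in neither window.

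IFITM3 held most of the summed IFITM1, IFITM2 and IFITM3 counts in every group, from a mean of 54.1% in untreated PATU8988S to 98.6% in KP4 with OVOL2 and M2rtTA. These are 3′-end counts that were not divided by length, from reference transcripts of 855 (IFITM1), 659 (IFITM2) and 808 (IFITM3) bases. Group means of IFITM3 ran from 278 CPM (PK45H mCherry) to 931 CPM (KP4 OVOL2), a 3.35-fold range. Those of IFITM2 ran from 9.03 CPM (PK45H OVOL2) to 469 CPM (untreated PATU8988S), a 52.0-fold range. IFITM1 ran from 0.878 to 17.4 CPM and rested on 0 to 93 counts per library. IFITM10 rested on 0 to 52 counts per library, with 7 libraries at 0. IFITM2 thus varied more between groups than IFITM3, and it had at least 36 counts in every library.

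**Figure D1:**
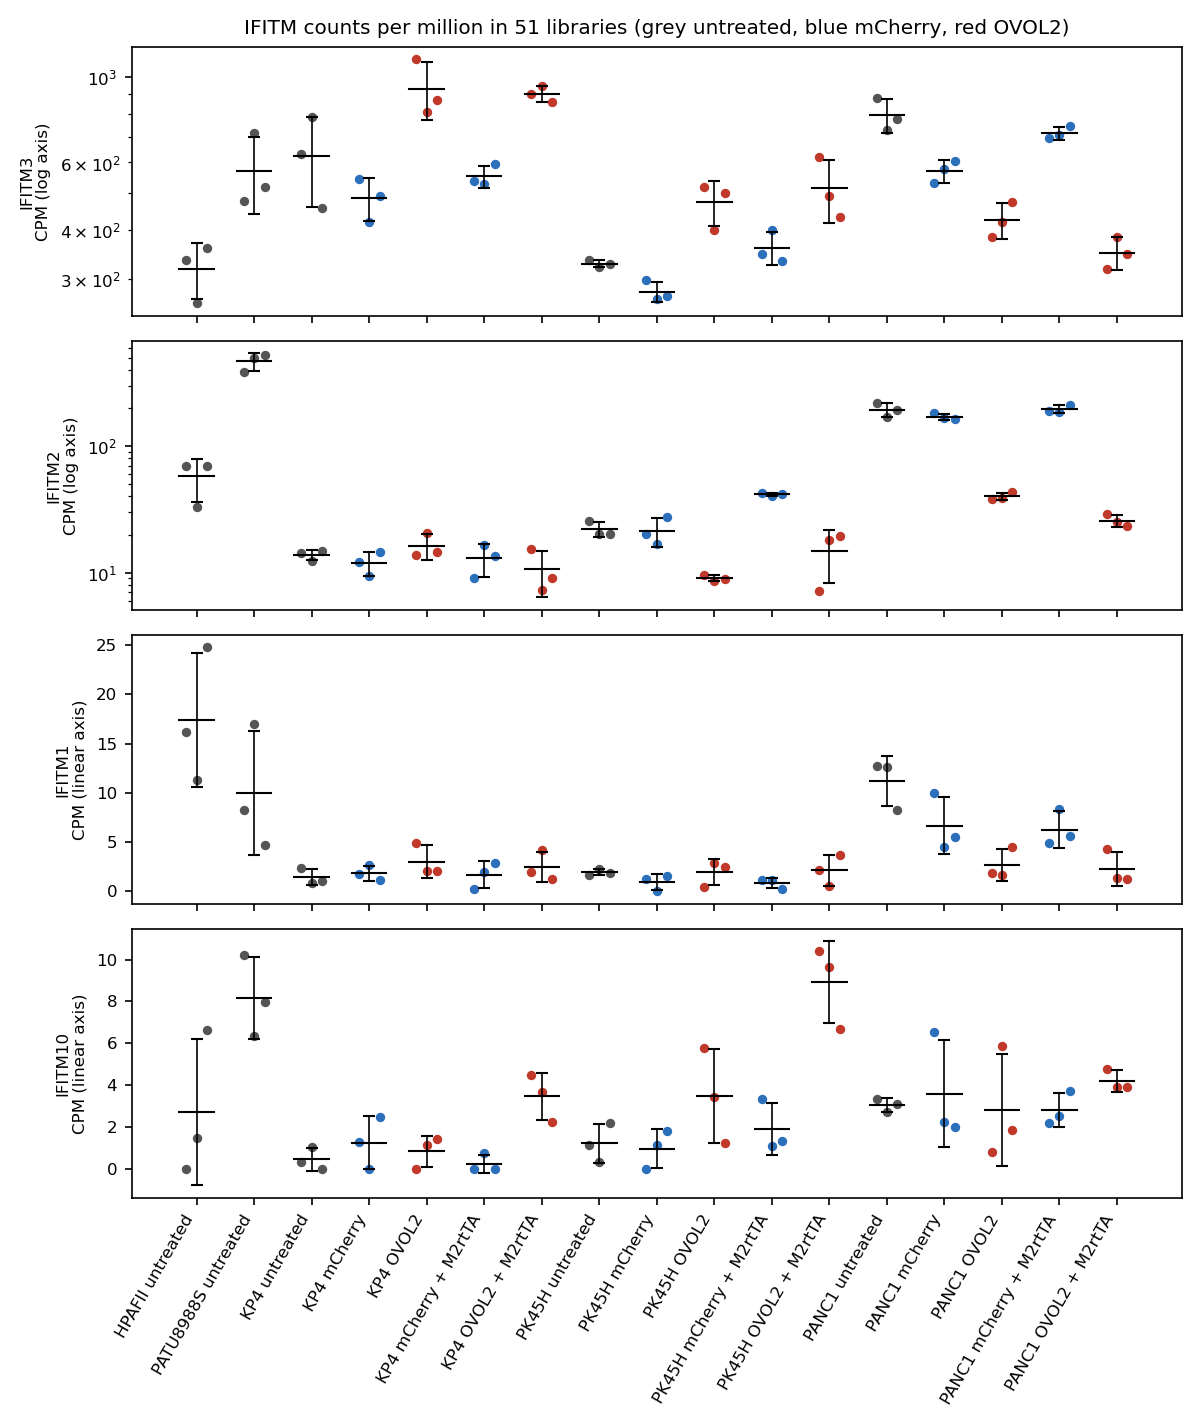
CPM of each IFITM gene in every library (points), with group mean and SD (bars, n = 3), on log axes for IFITM3 and IFITM2 and linear axes for IFITM1 and IFITM10. IFITM2 lies between 23.2 and 43.0 CPM in PANC1 with OVOL2 and between 166 and 219 CPM in the other PANC1 libraries, while IFITM3 lies above its mCherry libraries in KP4 and PK45H with OVOL2.

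IFITM2 fell in PK45H with OVOL2. Without M2rtTA its levels were 20.3, 16.8 and 27.4 CPM under mCherry and 9.62, 8.64 and 8.83 CPM under OVOL2. All 3 OVOL2 libraries lay below all 3 mCherry libraries. Lack of overlap says little by itself with 3 libraries per group, and its share over all genes was not counted. IFITM3 in PK45H also lacked overlap between mCherry and untreated libraries (adjusted p = 0.810 by edgeR). For IFITM2 the log2 fold change was -1.32 (SE 0.29, adjusted p = 0.0121 by edgeR), a 2.50-fold fall, in a comparison where 8.39% of 13583 genes passed the threshold of an adjusted p under 0.05. This call ended without mCherry replicate 3 (log2 fold change -1.13, adjusted p = 0.0518) or without OVOL2 replicate 2 (-1.28, adjusted p = 0.0501).

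With M2rtTA, IFITM2 in PK45H was at 42.4, 40.5 and 42.0 CPM under mCherry and at 7.20, 18.03 and 19.4 CPM under OVOL2. The groups again did not overlap, and OVOL2 replicate 1 was the lowest. The log2 fold change was -1.43 (SE 0.28, adjusted p = 0.00356), a 2.69-fold fall, where 15.9% of genes passed. The untreated PK45H libraries, at 25.4, 20.3 and 20.2 CPM, lay among the mCherry libraries without M2rtTA. The mCherry libraries with M2rtTA lay above those without it, by a log2 difference of 0.91 (SE 0.27) with an adjusted p of 0.329.

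In KP4, IFITM2 was low and did not pass the test in either arm. Without M2rtTA it was at 12.0, 9.33 and 14.6 CPM under mCherry and 13.7, 20.6 and 14.5 CPM under OVOL2 (log2 fold change 0.44, SE 0.29, adjusted p = 0.443). With M2rtTA it was at 9.06, 16.6 and 13.5 CPM under mCherry and 15.5, 7.34 and 9.07 CPM under OVOL2 (log2 fold change -0.28, SE 0.30, adjusted p = 0.541). The libraries overlapped in both arms, on 36 to 109 IFITM2 counts each. The percentages of all genes called in KP4 were 6.82% without and 22.4% with M2rtTA.

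The response of IFITM2 differed between KP4 and PK45H without M2rtTA. The difference of the log2 fold changes, KP4 minus PK45H, was 1.76 (SE 0.43, adjusted p = 0.0288), where 1.8% of 14549 genes passed. It lost its call when any 1 of 8 of the 12 libraries was left out, with values of 1.53 to 1.93 over all 12. With M2rtTA the difference was 1.18 (SE 0.42, adjusted p = 0.143), where 2.93% of genes passed. Whether the effect changed with M2rtTA within a line was tested too: the change for IFITM2 was -0.72 (SE 0.41, adjusted p = 0.441) in KP4 and -0.10 (SE 0.41, adjusted p = 0.928) in PK45H, where 1.43% and 1.6% of genes passed.

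In PANC1, the line whose fall of IFITM2 chose the family, the levels without M2rtTA were 183, 166 and 166 CPM under mCherry and 38.2, 39.2 and 43.0 CPM under OVOL2. With M2rtTA they were 191, 186 and 214 CPM under mCherry and 29.02, 25.2 and 23.2 CPM under OVOL2. Untreated PANC1 lay at 219, 169 and 195 CPM. The log2 fold changes were -2.10 (SE 0.14) and -2.93 (SE 0.15), or 4.30-fold and 7.62-fold lower. The values of all 6 OVOL2 libraries lay under the lowest of the other 9 PANC1 libraries. In these comparisons 5.08% and 13.9% of 13218 genes passed the threshold, and since the rule used them nothing is read from that.

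IFITM3 rose with OVOL2 in KP4 and PK45H. In KP4 without M2rtTA it was at 543, 420.0 and 492 CPM under mCherry and 1111, 809 and 872 CPM under OVOL2. The groups did not overlap, and the log2 fold change was 0.93 (SE 0.17, adjusted p = 0.00453). In the M2rtTA arm it was at 537, 527 and 594 CPM under mCherry and 901, 949 and 860.1 CPM under OVOL2 (log2 fold change 0.71, SE 0.17, adjusted p = 0.00728). These are rises of 1.91-fold and 1.64-fold, and both calls held without any 1 library.

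In PK45H without M2rtTA, IFITM3 was at 297, 266 and 269.9 CPM under mCherry and 519, 401 and 499.5 CPM under OVOL2. All OVOL2 libraries were higher, and the log2 fold change was 0.70 (SE 0.15, adjusted p = 0.00942). Beside M2rtTA it was at 348, 401 and 333 CPM under mCherry and 618, 491 and 433 CPM under OVOL2 (log2 fold change 0.57, SE 0.15, adjusted p = 0.0188). The call with M2rtTA ended without mCherry replicate 1 (0.52, adjusted p = 0.0751), mCherry replicate 3 (0.51, adjusted p = 0.0789) or OVOL2 replicate 1 (0.42, adjusted p = 0.0799). The effects in KP4 and PK45H differed by 0.24 (SE 0.23, adjusted p = 0.710) without M2rtTA and by 0.18 (SE 0.23, adjusted p = 0.788) with it. M2rtTA moved the OVOL2 effect on IFITM3 by -0.22 (SE 0.24, adjusted p = 0.720) in KP4 and by -0.13 (SE 0.21, adjusted p = 0.791) in PK45H.

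In PANC1 IFITM3 lay on the other side of its control. Its levels were 529, 576 and 605 CPM under mCherry and 384, 422 and 474 CPM under OVOL2. With M2rtTA they were 693, 707 and 744 CPM under mCherry and 318, 385 and 348 CPM under OVOL2. The OVOL2 libraries were lower without overlap in both arms, by log2 fold changes of -0.43 (SE 0.11) and -1.03 (SE 0.12), which is 1.35-fold and 2.05-fold. Untreated PANC1, at 881, 727 and 779 CPM, lay above the mCherry libraries without M2rtTA. M2rtTA shifted the OVOL2 effect in PANC1 by -0.83 (SE 0.20) for IFITM2 and by -0.60 (SE 0.16) for IFITM3. No test is given for PANC1, and the difference between PANC1 and the other lines was not tested.

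**Figure D2:**
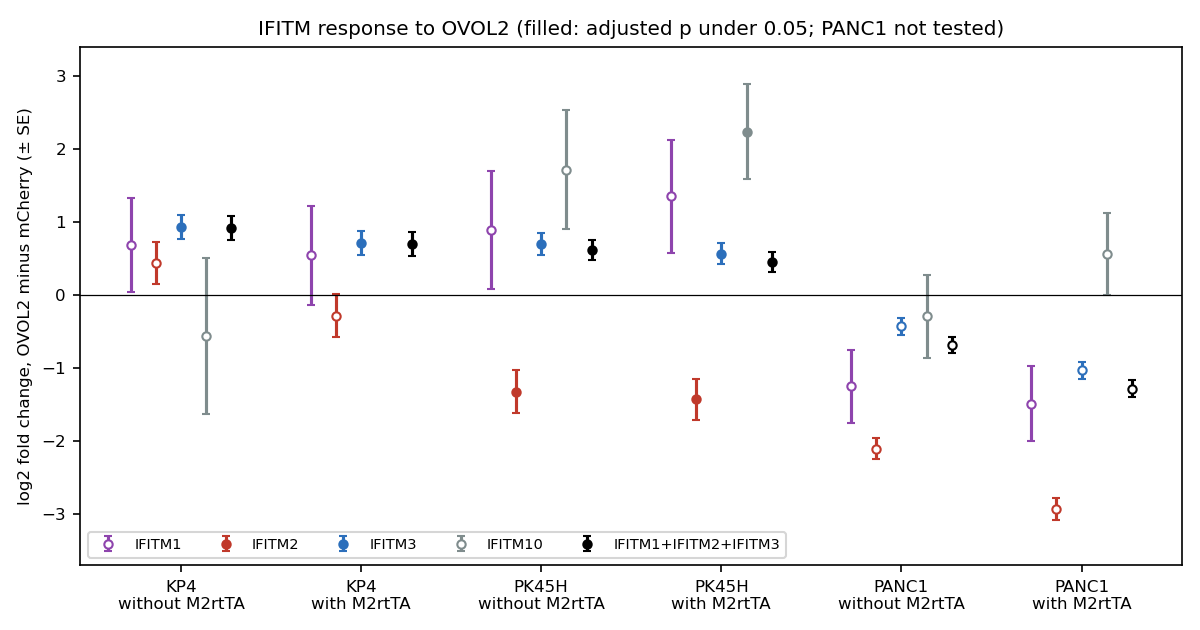
Log2 fold change of OVOL2 over mCherry (points, ± SE from the edgeR fit) for each IFITM gene and for the sum of the clustered genes, by line and arm. Filled points passed an adjusted p of 0.05, open points did not or, in PANC1, were not tested, and IFITM10 in KP4 with M2rtTA is left out because its control was at the counting floor. Nothing is read from the filled IFITM10 point in PK45H, since the gene passed the filter on low counts mainly through OVOL2 libraries. In PK45H IFITM2 lies at -1.32 and -1.43 while IFITM3 lies at 0.70 and 0.57.

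IFITM1 had too few counts for a firm statement. In KP4 its means were 1.86 CPM under mCherry and 3.03 CPM under OVOL2 without M2rtTA, and 1.71 and 2.47 CPM with it. In PK45H they were 0.941 and 1.98 CPM, and 0.878 and 2.14 CPM. The libraries overlapped in all 4 comparisons, and adjusted p-values were between 0.269 and 0.627. In PANC1 IFITM1 was at 9.95, 4.53 and 5.48 CPM under mCherry and 1.90, 1.64 and 4.53 CPM under OVOL2. With M2rtTA it was at 4.89, 8.37 and 5.58 CPM and at 4.32, 1.36 and 1.22 CPM. Without M2rtTA the highest OVOL2 library tied the lowest mCherry library at these digits, and with it the OVOL2 libraries were the lower ones. The OVOL2 libraries held 5 to 22 counts each, and with the shared last exon they cannot be told apart from a change of IFITM2.

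IFITM10, the distant member, was higher under OVOL2 in PK45H with M2rtTA. Its levels were 3.34, 1.12 and 1.33 CPM under mCherry and 10.4, 9.65 and 6.71 CPM under OVOL2. The groups did not overlap, and the log2 fold change was 2.24 (SE 0.65). The ratio of the pooled CPM was 4.54, with a 95% counting interval of 3.11 to 6.75 that covers counting error only. IFITM10 passed the filter on low counts in PK45H mainly through the OVOL2 libraries, where it is high. Nothing is therefore read from its adjusted p of 0.0318 by edgeR. That call also ended without mCherry replicate 2 (1.98, adjusted p = 0.108) or 3 (2.02, adjusted p = 0.112), or without OVOL2 replicate 1 (2.12, adjusted p = 0.083) or 2 (2.17, adjusted p = 0.0781). Without M2rtTA the PK45H means were 0.990 and 3.5 CPM and the libraries overlapped (adjusted p = 0.225).

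In KP4 with M2rtTA, IFITM10 had 0, 3 and 0 counts under mCherry and 27, 22 and 9 counts under OVOL2. The ratio of the pooled CPM was 16.6, with a 95% counting interval of 5.39 to 82.6 that covers counting error only. IFITM10 passed the filter on low counts in KP4 mainly through the OVOL2 libraries with M2rtTA, where it is high, so nothing is read from its adjusted p of 0.0404. That call was also lost without any 1 of 5 of the 6 libraries, all but mCherry replicate 2, at adjusted p-values of 0.0566 to 0.130. Without M2rtTA the KP4 libraries overlapped at 1.27 and 0.853 CPM (adjusted p = 0.848). In PANC1 the means were 3.61 and 2.84 CPM without and 2.82 and 4.21 CPM with M2rtTA, where the libraries did not overlap.

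The sum of IFITM1, IFITM2 and IFITM3 (IFITM1+IFITM2+IFITM3), which does not depend on how reads were divided among these 3 genes, rose with OVOL2 in KP4 and PK45H. In KP4 without M2rtTA it was at 557, 432 and 508 CPM under mCherry and 1129, 832 and 889 CPM under OVOL2 (log2 fold change 0.92, SE 0.16, adjusted p = 0.00424). In the arm with M2rtTA it was at 546, 546 and 611 CPM and at 919, 960.0 and 870.4 CPM (0.70, SE 0.16, adjusted p = 0.00739). No library of one group overlapped the other, and the 4 KP4 calls on IFITM3 and the sum held without any 1 library.

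In PK45H the sum IFITM1+IFITM2+IFITM3 was at 319, 283 and 299 CPM under mCherry and 529, 413 and 511 CPM under OVOL2 (log2 fold change 0.62, SE 0.14, adjusted p = 0.0133). With M2rtTA it was at 391, 443 and 376 CPM and at 628, 509.5 and 456 CPM (0.45, SE 0.14, adjusted p = 0.0408). The first call ended without OVOL2 replicate 1 (0.53, adjusted p = 0.0674) or 3 (0.57, adjusted p = 0.0611). The second ended without any 1 of 5 of the 6 libraries, at adjusted p-values of 0.134, 0.0509 and 0.141 for mCherry replicates 1, 2 and 3 and of 0.156 and 0.0784 for OVOL2 replicates 1 and 2, and in a fit of only the 2 groups compared (adjusted p = 0.0951). The fall of IFITM2 in PK45H thus stood beside a higher, not a lower, family total. In PANC1 the sum was lower with OVOL2 by log2 fold changes of -0.68 (SE 0.11) and -1.28 (SE 0.11), with means of 748 and 469 CPM, and 918 and 378 CPM.

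The make-up of the sum was compared as the percentage of its counts assigned to each gene. In PK45H the IFITM2 share was 6.36%, 5.93% and 9.17% under mCherry and 1.82%, 2.09% and 1.73% under OVOL2. With M2rtTA it was 10.8%, 9.15% and 11.2% under mCherry and 1.15%, 3.54% and 4.26% under OVOL2. In KP4 the mean share went from 2.40% ± 0.414 (SD, n = 3) to 1.78% ± 0.643 without and from 2.31% ± 0.700 to 1.16% ± 0.471 with M2rtTA. Over both lines the mean share of IFITM2 was lower with OVOL2 by -2.95 percentage points without M2rtTA (two-sided exact permutation within lines, p = 0.015, adjusted over 6 tests 0.0225) and by -4.27 with it (p = 0.01, adjusted 0.02).

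Most of that mean came from PK45H, with -5.28 and -7.41 points, against -0.623 and -1.14 in KP4. The IFITM3 share was higher by 2.93 and 4.19 points, which restates the IFITM2 result, since the mean IFITM1 share was at most 0.552% in any KP4 or PK45H group. The IFITM1 share moved by 0.0233 and 0.0886 points (exact permutation, adjusted p = 0.84 and 0.66). The smallest p that the 400 assignments allow is 0.005. In PANC1 the IFITM2 share was 23.0% ± 2.10 under mCherry and 8.58% ± 0.392 under OVOL2, and with M2rtTA 21.4% ± 0.780 and 6.88% ± 1.2. It was 19.4% ± 0.665 in untreated PANC1.

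**Figure D3:**
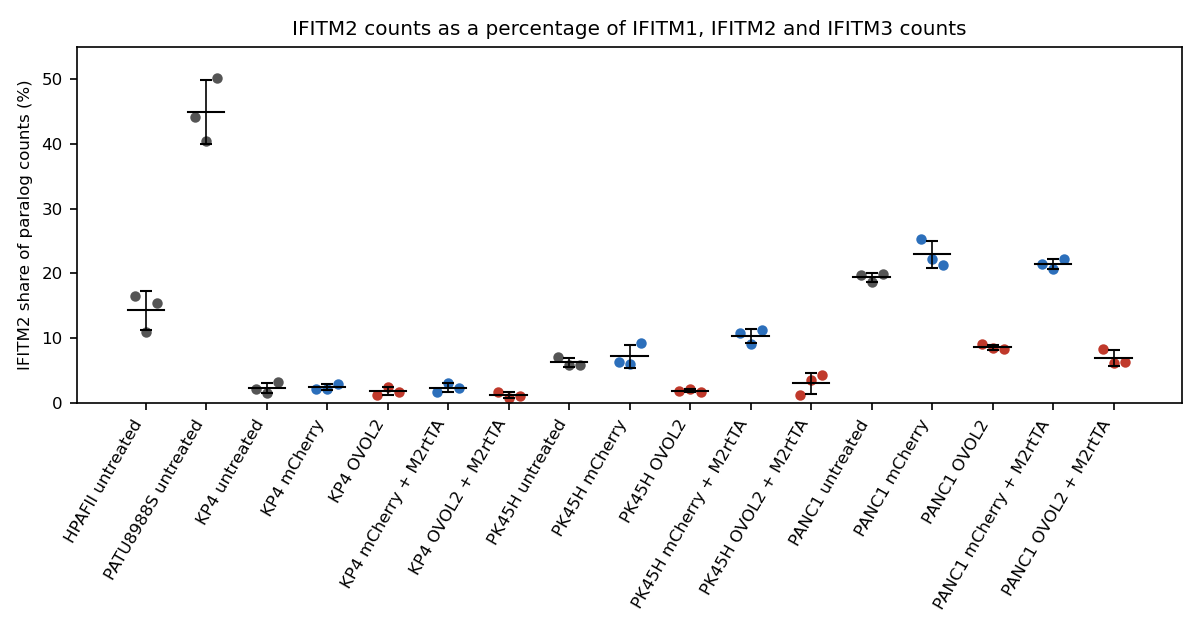
IFITM2 counts as a percentage of the summed IFITM1, IFITM2 and IFITM3 counts in every library (points), with group mean and SD (bars, n = 3). The share is 40.4% to 50.2% in untreated PATU8988S, 18.6% to 25.3% in PANC1 without OVOL2 and 6.14% to 9.02% in PANC1 with OVOL2.

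Transduction with mCherry moved no member past the threshold in KP4 or PK45H. Against untreated cells, IFITM2 differed by log2 fold changes of -0.19 (SE 0.29, adjusted p = 0.970) in KP4 and 0.03 (SE 0.28, adjusted p = 0.991) in PK45H. IFITM3 differed by -0.35 (SE 0.17, adjusted p = 0.711) and -0.18 (SE 0.15, adjusted p = 0.810). With M2rtTA against without it under mCherry, IFITM2 differed by 0.14 (SE 0.30, adjusted p = 0.979 by edgeR) in KP4. In PK45H it differed by 0.91 (SE 0.27, adjusted p = 0.329), and the libraries did not overlap. For IFITM3 the values were 0.21 (SE 0.17, adjusted p = 0.902) in KP4 and 0.33 (SE 0.15, adjusted p = 0.511) in PK45H. In KP4, 0% of genes passed by edgeR in both of these comparisons, with 966 and 919 genes at an unadjusted p under 0.05, and DESeq2 called 11 and 16. In PK45H 0.00736% of genes passed against untreated cells and 0.0294% for M2rtTA, while DESeq2 called 26 and 75 genes.

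In untreated cells, which the choice of the family did not use, IFITM2 differed between lines. PATU8988S was at 383, 496 and 528 CPM, PANC1 at 219, 169 and 195 CPM, HPAFII at 69.7, 33.1 and 70.1 CPM, PK45H at 25.4, 20.3 and 20.2 CPM, and KP4 at 14.2, 12.3 and 14.8 CPM. No 2 neighbours in this order overlapped, which says little by itself with 3 libraries per line. Its share over all genes was not counted. Of all genes, 29.3%, 28.7%, 25.2% and 23.5% passed in these neighbouring pairs, in the same order. PATU8988S exceeded PANC1 by 1.25 (log2, SE 0.24, adjusted p = 0.000954), PANC1 exceeded HPAFII by 1.72 (adjusted p = 9.53e-05) and HPAFII exceeded PK45H by 1.48 (SE 0.24, adjusted p = 0.00046). PK45H and KP4 differed by 0.67 (SE 0.24), with an adjusted p of 0.0582 by edgeR in the fit of all 5 lines. It was 0.024 in a fit of these lines alone and 0.035 by DESeq2. PATU8988S and KP4, the ends of the order, differed by 5.12 (SE 0.28, adjusted p = 2.46e-08), or 34.9-fold. The untreated libraries of a line are not known to be separate cultures, so p-values between lines measure the spread between libraries. HPAFII replicate 2, the smallest library, gave the lowest HPAFII value. The IFITM2 calls of HPAFII against PANC1 and against PK45H held without it, and the calls between other lines were not refitted without it.

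IFITM3 followed another order with a narrower range. PANC1 was at 881, 727 and 779 CPM, KP4 at 631, 786 and 458 CPM, PATU8988S at 475, 714 and 519 CPM, PK45H at 335, 322 and 328 CPM, and HPAFII at 335, 259 and 360.2 CPM. PANC1 and KP4 overlapped (log2 difference 0.41, SE 0.20, adjusted p = 0.169), as did KP4 and PATU8988S (0.09, SE 0.20, adjusted p = 0.775) and PK45H and HPAFII (0.03, SE 0.20, adjusted p = 0.930). PATU8988S exceeded PK45H by 0.83 (SE 0.20, adjusted p = 0.00599). KP4, the lowest line for IFITM2, was thus the second highest for IFITM3. The IFITM2 share of the sum ran from 2.29% ± 0.800 in KP4 to 45.0% ± 4.92 in PATU8988S.

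The sum IFITM1+IFITM2+IFITM3 was highest in PATU8988S (1049 CPM) and PANC1 (1001 CPM), which differed by 0.05 (log2, SE 0.20, adjusted p = 0.893). PANC1 exceeded KP4 (640.2 CPM) by 0.71 (SE 0.20, adjusted p = 0.0183), and KP4 exceeded HPAFII (393 CPM) by 0.62 (SE 0.20, adjusted p = 0.0273). The call of PANC1 over KP4 ended without KP4 replicate 3 (adjusted p = 0.0897) or PANC1 replicate 1 (0.0764). The call of KP4 over HPAFII ended without HPAFII replicate 2 (0.0764), KP4 replicate 1 (0.0648) or KP4 replicate 2 (0.132). HPAFII and PK45H (352 CPM) differed by 0.24 (SE 0.20, adjusted p = 0.417).

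IFITM1 was highest in HPAFII (17.4 ± 6.84 CPM), then PANC1 (11.2 ± 2.55), PATU8988S (9.97 ± 6.30), PK45H (1.94 ± 0.301) and KP4 (1.43 ± 0.817). Of the neighbours in this order, PATU8988S and PK45H differed (log2 difference 2.40, SE 0.46, adjusted p = 0.00122) and the other pairs did not pass (adjusted p of 0.226, 0.803 and 0.638). IFITM10 was at 8.17 ± 1.95 CPM in PATU8988S, 3.06 ± 0.320 in PANC1, 2.72 ± 3.49 in HPAFII, 1.23 ± 0.925 in PK45H and 0.469 ± 0.528 in KP4, and no neighbouring pair passed (adjusted p of 0.189, 0.995, 0.303 and 0.401). For PATU8988S over PANC1 that p was 0.00997 in a fit of those lines alone. The share of all genes that passed in these comparisons of lines was high. It was 29.9% for HPAFII with KP4, 28.7% with PANC1 and 25.2% with PK45H. It was 32.5% for PATU8988S with KP4, 29.3% with PANC1 and 28.3% with PK45H, and it was 21.9% for KP4 with PANC1 and 23.5% with PK45H.

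Part of the other interferon-induced genes rose with OVOL2 in KP4. Of 55 listed genes, which leave out the members, 49 were tested. Without M2rtTA 16 were higher and 0 lower (32.7%, beside 6.82% of all genes), with a median log2 fold change of 0.68. With M2rtTA 30 were higher and 0 lower (61.2%, beside 22.4% of all genes), with a median of 0.90. The fold change was positive for 39 and 41 of the 49. The median over all genes tested was 1.9e-05 and 0.0128. ISG15, a ubiquitin-like modifier, rose by 2.02 (SE 0.12) and 3.62 (SE 0.13) on the log2 scale, and MX1, an antiviral GTPase, by 2.56 (SE 0.21) and 3.20 (SE 0.20). IRF9 rose by 2.20 (SE 0.17) and 3.39 (SE 0.17), and IFIT1, which binds viral RNA, by 1.14 (SE 0.20) and 2.94 (SE 0.21). IFITM3, at 0.93 and 0.71, lay near the list's medians, while IFITM2 did not pass. Of IFI6 no change could be read with M2rtTA, since mCherry replicate 1 held 408 CPM against 11.3 and 15.8 CPM in its replicates.

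In PK45H the same list showed 3 genes higher and 1 lower without M2rtTA (median -0.00388) and 5 higher and 1 lower with it (median 0.18). These are 8.16% and 12.2% of the listed genes, beside 8.39% and 15.9% of all genes. The lower ones were PARP14 without and IFI16 with M2rtTA. IFI27 rose by 0.72 (SE 0.14) and 1.2 (SE 0.14), and IRF9 by 1.16 (SE 0.22) and 1.17 (SE 0.20). ISG15 was at 0.33 (SE 0.15, adjusted p = 0.204) without and rose by 1.00 (SE 0.15) with M2rtTA. MX1 was at -0.02 (SE 0.51) and 0.50 (SE 0.46) and did not pass. IFITM3 rose in PK45H by 0.70 and 0.57. The effect of OVOL2 was larger in KP4 than in PK45H for 8 of 52 listed genes without and for 15 of 52 with M2rtTA, and smaller for 0 of them, at backgrounds of 1.8% and 2.93%.

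In PANC1, where the low response of this list was part of the reason for the choice, 43 of its genes passed the filter on low counts. Their median log2 fold change was 0.104 without and 0.115 with M2rtTA, beside -0.02 and 0.02 over all genes, as a description of values that the choice used. ISG15 was at 0.69 (SE 0.17) and 0.76 (SE 0.17). With M2rtTA PLSCR1 was lower, at -1.25 (SE 0.30), while IFI35 was at 0.91 (SE 0.22) and TAP1 at 0.58 (SE 0.17). IRF1 was at -4.05 (SE 1.14) without M2rtTA, where mCherry replicate 2 held 551 CPM against 12.4 and 8.59 CPM in its replicates.

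**Figure D4:**
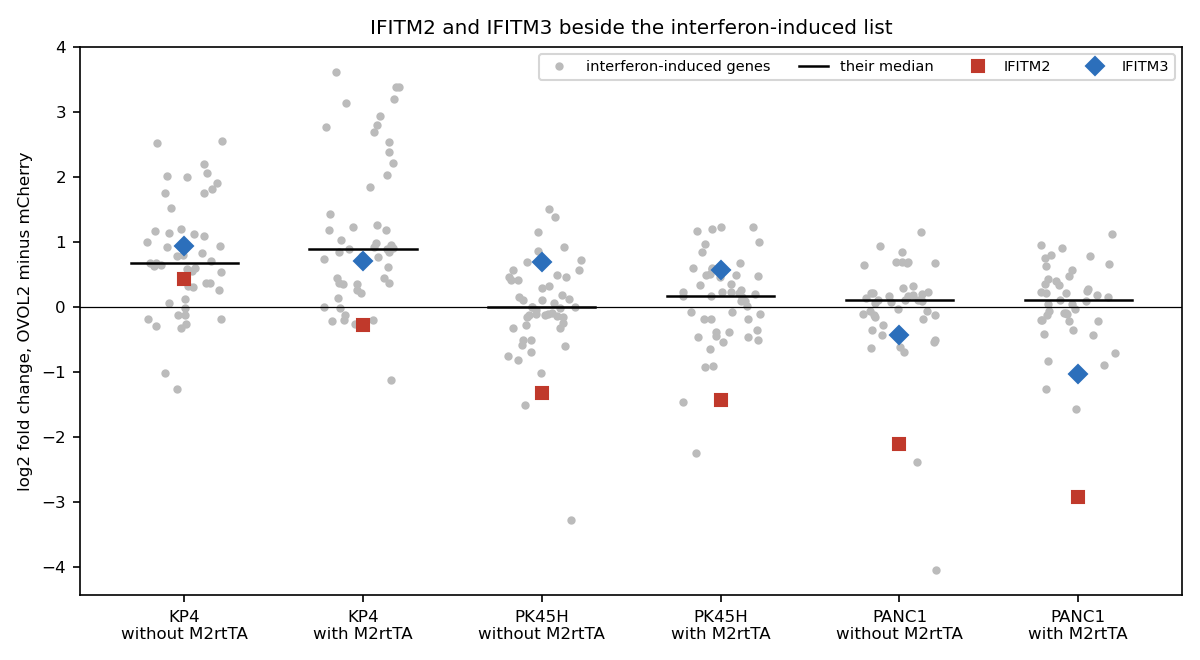
Log2 fold change of OVOL2 over mCherry for the listed interferon-induced genes (grey points, spread sideways at random) with their median (black line), and for IFITM2 (squares) and IFITM3 (diamonds), by line and arm. The medians are 0.68 and 0.90 in KP4, -0.00388 and 0.18 in PK45H and 0.104 and 0.115 in PANC1, and the lowest grey point, at -4.05, is IRF1.

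Among interferon receptors and signalling genes, 21 of 22 were tested. In KP4 5 were higher and 1 lower without M2rtTA (28.6%, beside 6.82% of all genes), and 6 higher and 2 lower with it (38.1%, beside 22.4%). In PK45H 2 were higher and 1 lower, and 3 higher and 0 lower (14.3% in each arm, beside 8.39% and 15.9%). IFNAR2, a chain of the type I interferon receptor, fell in KP4 by 0.69 (SE 0.17, adjusted p = 0.0271) and by 1.59 (SE 0.18, adjusted p = 4.07e-05) on the log2 scale. It fell in PK45H by 2.02 (SE 0.29, adjusted p = 0.000587) without M2rtTA and was at -0.80 (SE 0.27, adjusted p = 0.0601) with it. IFNAR1, the other chain, was between 0.06 and 0.22 in these comparisons and did not pass. IFNGR2, a chain of the type II receptor, rose in KP4 by 1.11 (SE 0.18) and 1.00 (SE 0.18) and was at -0.16 (SE 0.23) and -0.08 (SE 0.23) in PK45H. In PANC1 with M2rtTA IFNAR2 was at -1.74 (SE 0.35), as a description without a test.

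Of 9 genes whose proteins are known to bind, modify or route IFITM proteins, all were tested. By edgeR 0 passed without M2rtTA in KP4 or PK45H, beside 6.82% and 8.39% of all genes. With M2rtTA 1 of 9 (11.1%) passed in KP4, beside 22.4% of all genes, and 3 of 9 (33.3%) in PK45H, beside 15.9%. With M2rtTA VCP, an ATPase that extracts proteins for degradation, fell by 0.54 (SE 0.11) in KP4 and by 0.35 (SE 0.11) in PK45H on the log2 scale. In PK45H CAV1, a component of caveolae, fell by 0.48 (SE 0.14) and VAPA, an endoplasmic reticulum membrane protein, rose by 1.02 (SE 0.24). The other genes of the CD225 superfamily were hardly measured, with 2 of 9 tested in KP4 and 3 of 9 in PK45H. Only PRRT2 passed, in PK45H with M2rtTA (3.55, SE 0.88, adjusted p = 0.0151).

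The genes beside the cluster on chromosome 11 were also followed. Of the 5 protein-coding neighbours on each side, 7 were tested in KP4 and PK45H, and 0 were lower in any of the 4 comparisons. Over all genes, 486 and 1703 of 13662 were lower in KP4 without and with M2rtTA. In PK45H 653 and 1141 of 13583 were lower. With 7 genes at such shares, nothing is read from 0 lower. In KP4 0 and 3 of 7 were higher without and with M2rtTA, beside 6.82% and 22.4% of all genes called, and in PK45H 2 of 7 in each arm, beside 8.39% and 15.9%. In PK45H PKP3, a desmosomal plakophilin, rose by 1.99 (SE 0.43) and 1.38 (SE 0.40), and SIGIRR, a negative regulator of interleukin-1 and Toll-like receptor signals, rose by 1.22 (SE 0.32) and 1.59 (SE 0.33). In KP4 with M2rtTA PGGHG rose by 1.75 (SE 0.29), PKP3 by 1.88 (SE 0.38) and B4GALNT4 by 0.93 (SE 0.27), while 0 of 7 passed without it. Of the 10 neighbours of IFITM10 only CTSD, the lysosomal protease cathepsin D, was tested. CTSD rose by 0.86 (SE 0.22) and 0.90 (SE 0.22) in KP4 and by 0.75 (SE 0.17) and 1.02 (SE 0.17) in PK45H.

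The genes whose group means were most like those of IFITM2 were CHDH (Pearson r of log2 CPM 0.925), COX6C (0.923), ECH1 (0.922), EEPD1 (0.92) and MAN2A2 (0.915), out of 10272 genes over the 17 groups. These groups share lines, so r mostly orders cell lines, and no p is given. The PANC1 groups were among those used to pick these genes, so nothing is read from their values in PANC1. CHDH, a mitochondrial choline dehydrogenase, was at 95.8 CPM in untreated PATU8988S and went from 38.4 CPM under mCherry to 20.3 CPM under OVOL2 in PANC1. In PK45H without M2rtTA, where IFITM2 fell, CHDH was at 6.13 CPM under mCherry and 9.96 CPM under OVOL2. ECH1, a mitochondrial enzyme of fatty acid oxidation, went from 386 to 185 CPM in PANC1 and from 109 to 66.9 CPM in PK45H without M2rtTA, but from 111 to 117 CPM in PK45H with it. For the sum the nearest were LHPP (0.826), HDAC1 (0.794), EPB41L4B (0.765), CDK5RAP3 (0.757) and LRFN1 (0.742). Between members, r was 0.737 for IFITM1 with IFITM2, 0.12 for IFITM2 with IFITM3 and 0.263 for IFITM1 with IFITM3 over the same 17 groups.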

How the data were processed

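PLATE-seq 3′-end libraries were deposited by the authors as raw counts per gene symbol, and the submitters' processing notes name kallisto 0.44.0 and GRCh38. The annotation release, molecular identifiers, strand setting and the division of paralog reads are not given in the sources used here. All columns matched a sample, no 2 of the 51 libraries were identical, and low totals limit IFITM1 and IFITM10 most.

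Counts were fitted with edgeR 4.0.16 quasi-likelihood tests (R 4.3.3, filterByExpr, TMM scaling), 1 fit per line, 1 of KP4 with PK45H and 1 of untreated cells. The p-values were adjusted by Benjamini-Hochberg over all genes tested, with a threshold of 0.05. The SE is the absolute log2 fold change over the square root of F, and CPM are TMM-scaled. For the paralog sum, the rows of IFITM1, IFITM2 and IFITM3 were replaced by their sum in separate fits of the same form. Shares were compared by exact permutation within lines. The pipeline was tested on simulated data. Intervals cover counting error only.

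Members and gene lists were chosen with earlier results of these data known. Besides members, the text names the 5 genes most like IFITM2 and like the sum, cluster neighbours, and list genes given as examples. Promoters are from RefSeq, and alternatives were DESeq2 1.42.0, another scaling (RLE), no filter, only the groups compared, a replicate block and leaving out each library.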

Additional observations from a re-analysis of the deposited data

Results flagged for a closer look

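The response of IFITM2 to OVOL2 without M2rtTA differed between KP4 and PK45H by the test of the difference itself. The difference of log2 fold changes, KP4 minus PK45H, was 1.76, with an adjusted p of 0.0288 by edgeR. IFITM2 was at 12.0 and 16.3 CPM in KP4 under mCherry and OVOL2, and at 21.5 and 9.03 CPM in PK45H. The call was lost on leaving out any 1 of 8 of the 12 libraries, at adjusted p-values of 0.0527 to 0.103. With M2rtTA the difference was 1.18 and did not pass (adjusted p = 0.143).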

How the results depend on the processing

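IFITM3 and the sum in KP4 (both arms), IFITM3 in PK45H without M2rtTA and IFITM2 in PK45H with M2rtTA kept their calls without any 1 library. Scaling by RLE changed 0 of 83 results. By DESeq2 82 results stayed the same and 1 gained a call, IFITM2 in untreated KP4 against PK45H (log2 fold change -0.671). Adding IFITM1 counts to IFITM2, chosen after seeing the data, changed 0 of 6. In the values that follow, log2 fold changes are given and the cause was not tested. The sum in PK45H with M2rtTA lost its call with no filter (0.415), with only the groups compared (0.473) and with the replicate block (0.444). With only the groups compared, the sum in PK45H without M2rtTA (0.609), the sum in HPAFII against KP4 (-0.599) and IFITM3 in PK45H with M2rtTA (0.586) lost theirs. IFITM10 in KP4 with M2rtTA lost its call with the replicate block (3.92). Replicate numbers do not pair the samples: 3 of 36 same-number correlations exceeded 0.1 (range -0.21 to 0.243), the own number was best in 9 of 36, and the replicate block changed no other call.

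The IFITM1 share without M2rtTA reversed as a log2 ratio (-0.0799), as did IFITM10 in HPAFII against PANC1 with only the groups compared (0.0186), IFITM2 for mCherry against untreated PK45H with no filter (-0.0155) and IFITM3 in HPAFII against PK45H with no filter (-0.034). None of these had passed the test.

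Leaving out 1 library gave these lowest and highest values. For OVOL2 against mCherry, the sum in PK45H ranged from 0.532 to 0.731 without and from 0.323 to 0.555 with M2rtTA, IFITM2 in PK45H without M2rtTA from -1.44 to -1.13, and IFITM3 in PK45H with M2rtTA from 0.42 to 0.679. IFITM10 ranged from 3.22 to 7.27 in KP4 with and from -1.2 to 0.294 without M2rtTA, from 1.98 to 2.87 in PK45H with it, and from -1.33 to 0.426 in PANC1 without it. IFITM1 with M2rtTA ranged from -0.0534 to 1.22 in KP4 and from -2.28 to -1.14 in PANC1. The IFITM1 share ranged from -0.0532 to 0.109 points without and from -0.00916 to 0.169 with M2rtTA. In untreated cells the sum ranged from -0.802 to -0.455 for HPAFII against KP4, from -0.883 to -0.535 for KP4 against PANC1 and from -0.0747 to 0.167 for PATU8988S against PANC1. Untreated IFITM10 ranged from -2.58 to 0.616 for HPAFII against PANC1 and from -1.27 to 2 against PK45H, IFITM1 from -0.795 to 0.146 for PATU8988S against PANC1, and IFITM3 from -0.0593 to 0.134 for HPAFII against PK45H and from -0.282 to 0.0922 for PATU8988S against KP4. IFITM2 ranged from -0.356 to 0.235 for the M2rtTA difference in PK45H, from -0.162 to 0.154 for mCherry against untreated PK45H and from -0.0516 to 0.342 for M2rtTA under mCherry in KP4.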
